A study of Mus musculus with 2 samples.

Results

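Genes that mark the proximal luminal and progenitor cells of the mouse prostate were examined in the ventral prostate of mice with an ARR2PB-miR32 transgene. The 9 genes were Clu, Ly6d, Ly6a, Psca, Ppp1r1b, Prom1, Msln, Aqp5 and Cyp2f2, out of 13899 genes detected on the arrays. They were chosen by name with the log2 ratios of these same arrays already known, so their values are descriptions. They are measured by 10 probes, with a pair of probes for Prom1. All 10 carried Feature Extraction's flag for a spot that clears its local background, in each pool and in both dye orientations.

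The groups were a pool of RNA from 6 ARR2PB-miR32 transgenic mice and a pool from 6 wild-type mice, both of the FVB/N strain (also spelled FBV/N in the labels) and 6 months old. The tissue is labelled ventral prostate, while the growth text also names dorsolateral prostates. ARR2PB is a composite probasin promoter that works under androgen control and is aimed at prostate epithelium. The pools were hybridised together, each in its own dye, on 2 Agilent arrays, with the transgenic pool in Cy3 on array 1 and in Cy5 on array 2. Both arrays hold the same 2 RNA pools, so each genotype has 1 replicate: no test was possible, no p-value is given, and every SD below is that of 2 technical arrays and leaves out the spread between mice. Of the 15 genes listed for distal luminal and secretory cells, all 15 were detected, among them probasin (Pbsn) and the spermine-binding protein gene Sbp of the ventral lobe.

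The ducts of the mouse prostate run from a proximal part next to the urethra to distal tips, and most secretory protein is made in the distal luminal cells. Luminal cells of the proximal ducts express a set of surface proteins of their own, including Psca and Ly6a (Sca-1), and these cells and their Ly6d-bearing relatives are known for surviving castration and for forming new ducts in transplantation assays. Several of the genes are shared with urothelium, mesothelium, airway club cells or leukocytes, so a pool of whole tissue does not tell which cell an RNA came from. In such pools fewer cells of a type and less RNA per cell cannot be told apart.

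The microRNA that names the transgene belongs to a family with a shared seed, the bases that pair with target messages. The sequences are shown because the seed is what miR-32 has in common with the abundant relatives miR-25 and miR-92a. They are the mature forms of RefSeq on build GRCm38.p6, with bases 2 to 8 in capitals, and the strand and position of miR-32-5p are minus, chr4:56895272-56895293.
mmu-miR-32-5p: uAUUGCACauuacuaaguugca
mmu-miR-25-3p: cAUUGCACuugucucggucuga
mmu-miR-92a-3p: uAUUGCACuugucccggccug
The labels do not say which arm the transgene yields. Whether messages of the 9 genes carry sites for this seed was not analysed here.

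The 9 genes did not differ in one direction. Clu and Ppp1r1b were higher in the transgenic pool, Msln, Ly6d and Prom1 were lower, and Psca, Cyp2f2, Ly6a and Aqp5 passed in neither direction. A gene is called higher or lower here where its mean log2 ratio of transgenic over wild type was at least 1 in size and each array alone showed at least 1.5-fold in that direction. By this rule 2 of 9 were higher and 3 of 9 lower, beside 1.09% of detected genes called higher and 3.53% called lower (151 and 491 genes). The median of the 9 mean ratios was -0.13, against 0.01 over all detected genes. These shares are given as background only, since the same ratios were known when the genes were picked.

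**Figure D1:**
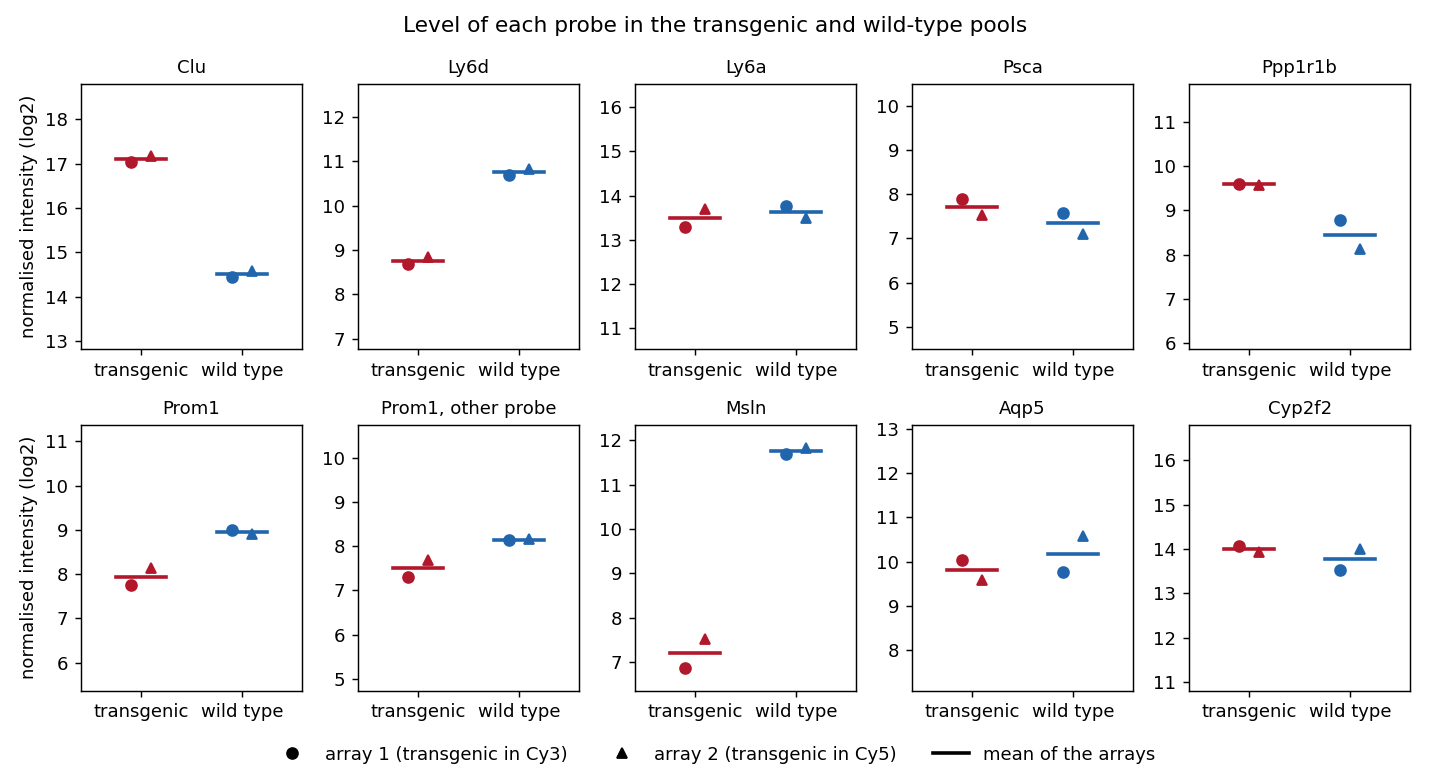
Normalised intensity (log2) of each of the 10 probes in the transgenic pool (red, left) and the wild-type pool (blue, right). Circles are array 1, triangles are array 2 and bars are their mean. Each panel spans 6 log2 units, and levels are not comparable between probes. For Clu, Ppp1r1b, both Prom1 probes, Ly6d and Msln the points of the pools do not overlap. The points are technical readings of the same pools, and the share of all detected genes without overlap is not given, so this is a description only.

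Clu encodes clusterin, a secreted chaperone that rises in the rodent prostate after androgen withdrawal. Its normalised intensity was 134001 and 148810 in the transgenic pool on arrays 1 and 2, against 22115 and 24520 in the wild-type pool. Both transgenic values lie far above both wild-type values. The log2 ratio was 2.5992 on array 1 and 2.6014 on array 2, with a mean of 2.60 ± 0.0016 (SD, n = 2 arrays), or 6.06-fold. It ranked 16 from the top among detected genes. Of all detected genes, 0.36% had a smaller gap between their arrays, so the small SD is an exception and not a general measure of error. Spots of 1 probe printed 10 times, over 110 such probes, had a median SD of 0.256 within array 1 and 0.186 within array 2. The arrays lay further apart under other processing: with median centring in place of loess, Clu stood at 3.95 on array 1 and 1.91 on array 2.

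Ppp1r1b encodes DARPP-32, an inhibitor of protein phosphatase 1 best known from neurons that respond to dopamine, and it marks proximal luminal cells of the mouse prostate. Its intensity was 771 and 766 in the transgenic pool and 439 and 280 in the wild-type pool. The gap between arrays sits on the wild-type side. The mean log2 ratio was 1.13 ± 0.45 (2.20-fold), made of 0.81 on array 1 and 1.45 on array 2. On array 1 alone it did not reach 2-fold. Of the 8 other detected genes for inhibitor subunits of this phosphatase 0 were called, with Ppp1r2 lowest at -0.08 ± 0.43 and Ppp1r14b highest at 0.41 ± 0.57. The closest relatives Ppp1r1a and Ppp1r1c were not detected.

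**Figure D2:**
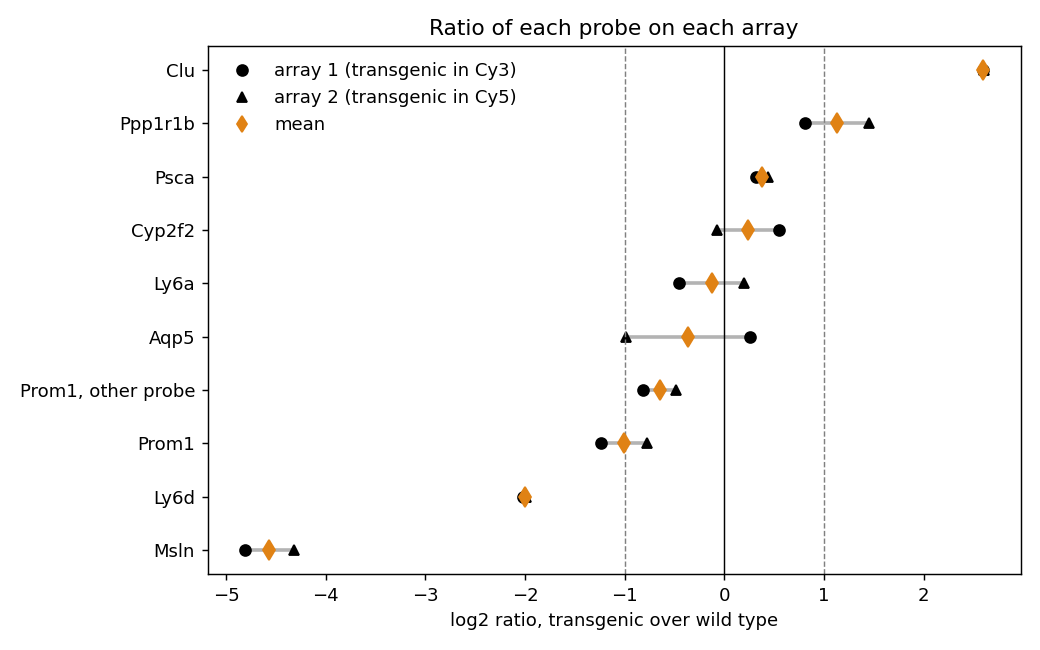
Log2 ratio of transgenic over wild type for each probe, on array 1 (circles), array 2 (triangles) and as their mean (diamonds). Dashed lines stand at a 2-fold difference. Msln reaches -4.57, Clu stands at 2.60, and the values of Cyp2f2, Ly6a and Aqp5 lie on opposite sides of 0 on the arrays.

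Msln had the largest difference of the 9. It encodes mesothelin, a surface protein of mesothelium that is held by a lipid anchor. Its intensity was 117 and 183 in the transgenic pool, against 3290 and 3645 in the wild-type pool. The mean log2 ratio was -4.57 ± 0.35 (23.7-fold lower), with -4.81 on array 1 and -4.32 on array 2, and only 4 detected genes had a lower ratio. In the transgenic pool the raw spot signal was 138 over a local background of 26 in Cy3, but 173 over 128 in Cy5, so the red reading lay close to its background although it was flagged well above it. An offset added in background correction shrinks the ratio of such dim spots, and its part in this value was not tested. Feature Extraction's own processed signals gave -5.48, and spots without background subtraction gave -4.34.

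The 3 other detected genes listed for mesothelium did not show the difference of Msln, and the undetected ones could not be judged. Of 9 on the array 4 were detected, and Msln was the only one called. Krt19, a simple epithelial keratin also made by luminal cells, stood at -0.07 ± 0.29, Nkain4 at -0.01 ± 0.45 and Slc9a3r1 at 0.44 ± 0.25. The more specific markers Upk3b, Lrrn4 and Gpm6a were well above background in neither pool on either array. The transcription factor gene Wt1 was well above background in 1 reading of each pool, both in Cy3. These readings were 50 over a background of 26 in the transgenic pool and 74 over 26 in the wild-type pool. Rspo1 cleared the background only in the wild-type Cy3 reading, at 64 over 21, against 44 over 25 in the transgenic Cy3 reading. The summed intensity of the 3 detected genes other than Msln was 11420 and 12630 in the transgenic pool and 13536 and 11253 in the wild-type pool. Most of it was Krt19, at 10439 and 11540 against 12623 and 10499, so the sum says little about mesothelium. Of the mesothelin relatives, Mslnl, Otoa and Strc were not detected.

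Ly6d encodes a small surface protein of the LY6 family that is found on keratinocytes and on early B-lineage cells, and it marks castration-resistant progenitors of the mouse prostate. Its intensity was 410 and 459 in the transgenic pool and 1658 and 1820 in the wild-type pool. The arrays nearly coincide after loess. The mean log2 ratio was -2.0012 ± 0.0207 (4.003-fold lower), which placed it 166 from the bottom. A smaller gap between arrays was found in 4.92% of detected genes. With median centring in place of loess the arrays parted, with Ly6d at -0.98 on array 1 and -2.91 on array 2. Leukocyte genes differed in the same direction. In the B and plasma cell list 6 of 7 detected genes lay past the rule on the low side (median -2.92), among them the antigen receptor subunit gene Cd79b (-3.80 ± 0.20) and the antibody joining chain gene Jchain (-3.54 ± 0.15, with -5.98 from its other probe). Ms4a1, which encodes CD20, stood at -3.70 ± 0.30, with a transgenic spot that cleared the background on 1 array only. With detection asked of both pools 3 genes of this list remained, with a median of -3.54. The summed intensity of the 7 was 2119 and 2374 in the transgenic pool against 22020 and 25020 in the wild-type pool. The 12 basal cell genes, all detected, had a median of -0.38 with 0 called. The brightest were Krt15 (-0.48 ± 0.48), Krt5 (-0.35 ± 0.37) and the integrin gene Itgb4 (-0.43 ± 0.21). The summed intensity of the 12 was 7608 and 8043 in the transgenic pool and 10565 and 9804 in the wild-type pool. The part of these cells in the Ly6d value was not tested.

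Prom1 encodes prominin-1, a glycoprotein of membrane protrusions that is also called CD133 and is used to sort progenitors. The brighter probe read 215 and 282 in the transgenic pool and 509 and 482 in the wild-type pool. Its mean log2 ratio of -1.01 ± 0.33 lay at the edge of the rule. The other probe read 159 and 206 against 280 and 287, with -0.65 ± 0.24, which did not pass. With Feature Extraction's processed signals the probes stood closer to each other, at -1.24 ± 0.39 and -1.03 ± 0.08. Both probes lay below 0 on both arrays, but the call was lost in 4 of 9 alternatives. Among the 9, asking detection of both pools and dropping the filter on dim probes left the value at -1.01 and could not change the call. In the transgenic pool the Cy5 signal of the brighter probe was 237 over a background of 122. The relative Prom2 stood at -0.03 ± 0.20.

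**Figure D3:**
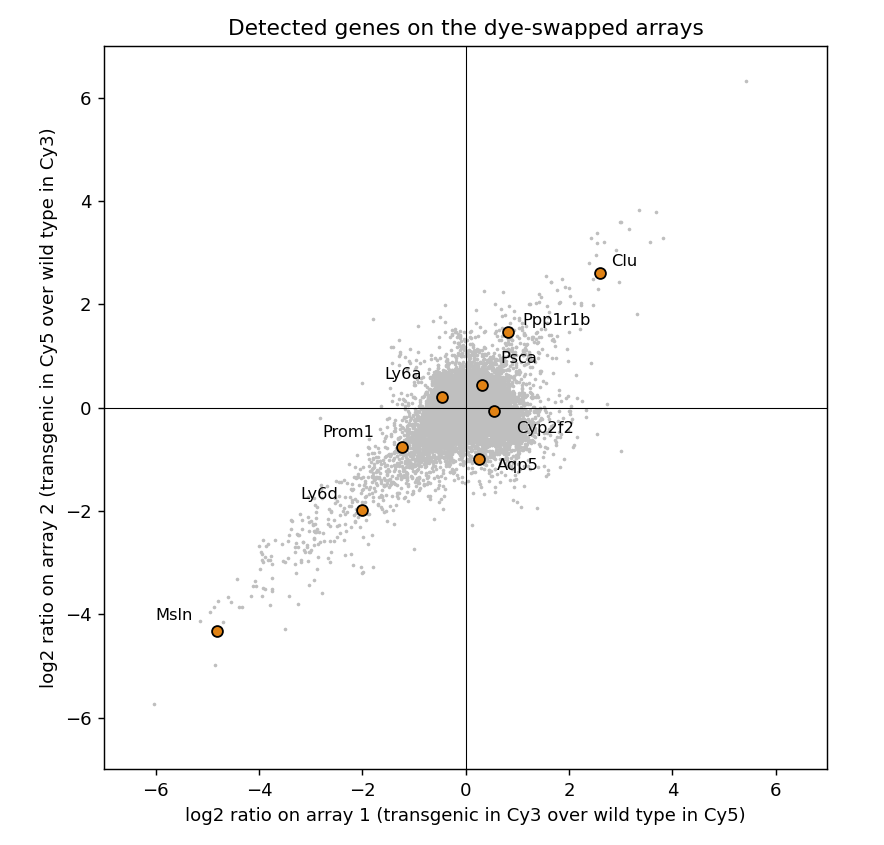
Log2 ratio of transgenic over wild type on array 1 (x axis) against array 2 (y axis) for the 13899 detected genes (grey) and the 9 genes (orange, named). Clu, Ppp1r1b and Psca lie above 0 on both arrays, Msln, Ly6d and Prom1 lie below 0 on both, and Aqp5, Ly6a and Cyp2f2 change side between the dye orientations. Of the 13899 detected genes, 3424 lie above 0 on both arrays and 3788 below 0 on both, so a shared sign is common.

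Psca, the prostate stem cell antigen, is another LY6-type surface protein and is also made by urothelium. Its signal was among the weak ones, with a raw Cy5 reading of 182 over a background of 112 in the transgenic pool (array 2) and 175 over 106 in the wild-type pool (array 1). Its normalised intensity was 238 and 186 in the transgenic pool and 192 and 137 in the wild-type pool. The pools overlap across arrays, although within each array the transgenic reading was the higher. The mean log2 ratio was 0.38 ± 0.09 (1.30-fold), above that of 90.4% of detected genes and below the rule. With Feature Extraction's processed signals its arrays parted, at -0.07 on array 1 and 1.20 on array 2.

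Ly6a encodes Sca-1, which marks proximal ducts of the prostate but also blood stem cells and endothelium, and which interferons induce. Its intensity was 10088 and 13206 in the transgenic pool and 13816 and 11518 in the wild-type pool. The values interleave, the mean log2 ratio was -0.13 ± 0.46, and the sign differed between the arrays. Under median centring the mean was 0.10. The interferon-gamma list of 12 genes, which includes Ly6a, had a median of -1.09, or -1.12 without Ly6a, and 7 of its genes were called lower and 1 higher. The GTPase genes Iigp1 (-3.63 ± 0.17) and Gbp2 (-2.08 ± 0.26) were among the lower ones. Of 12 endothelial genes 6 were detected and 0 were called, with a median of -0.21, and the brightest, Ly6c1, stood at 0.27 ± 0.99 with its arrays on opposite sides of 0. Activated T cells also carry Ly6a, and T and NK cell genes had a median of -1.51 (6 of 8 lower). Most of the 8 met the detection rule through the wild-type pool alone, so this count and median had to lean to the low side. With detection asked of both pools 2 genes remained, with a median of -0.76. For all 8, under the usual detection rule, Feature Extraction's processed signals gave -2.60. The summed intensity of the 8 was 798 and 1125 in the transgenic pool and 2123 and 2406 in the wild-type pool. The part of these cells in the Ly6a value was not tested. Ly6a and its neighbours have close paralogs, and signal shared between their probes was not checked.

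Ly6d, Ly6a and Psca belong to 1 family and lie near each other on the same chromosome. In the gene order of the RefSeq table, Psca to Ly6a takes in 25 genes, of which 14 have a probe and 8 were detected. Between these ends Ly6d was the only gene called lower and Ly6e the only one called higher. Ly6e, whose protein is anchored like its relatives and is induced by interferon, stood at 1.29 ± 0.87, with 0.68 on array 1 alone, where the call was lost, and 1.91 on array 2. The other detected neighbours had mean log2 ratios of 0.66 ± 0.09 for Ly6k, -0.15 ± 0.0037 for Lypd2, -0.17 ± 0.16 for Ly6i and -0.20 ± 0.13 for Lynx1. Lypd2 was dim, and its transgenic spot cleared the background on 1 array only, so its small SD is no measure of precision. Across the whole LY6 and uPAR superfamily, 21 of 26 genes on the array were detected, with 1 higher, 1 lower and a median of 0.02. Neither direction was shared by the family.

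Aqp5 encodes a water channel of the apical membrane of gland cells. Its intensity was 1047 and 772 in the transgenic pool and 874 and 1531 in the wild-type pool. The arrays disagreed, with log2 ratios of 0.26 and -0.99, and the mean of -0.36 ± 0.88 is smaller than its SD. With Feature Extraction's processed signals both arrays lay below 0, at -0.29 and -0.82. Of all detected genes, 95.2% had a smaller gap between their arrays. Among the 6 aquaporins detected out of 11, Aqp8 was the only one called, at 1.57 ± 0.27 (higher). Aqp1 stood at -0.33 ± 0.25, Aqp11 at -0.36 ± 0.32, Aqp2 at -0.09 ± 0.46 and Aqp4 at 0.03 ± 0.02.

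Cyp2f2 encodes a cytochrome P450 that is the naphthalene-activating enzyme of airway club cells in mice. Its intensity was 17256 and 15612 in the transgenic pool and 11810 and 16434 in the wild-type pool. The values interleave, and the mean log2 ratio of 0.24 ± 0.44 was positive on array 1 (0.55) and negative on array 2 (-0.07). With Feature Extraction's processed signals it was near 0 on both, at 0.07 and 0.15. Of 34 CYP2 genes on the array 12 were detected, 0 were higher and 3 were lower. These were the close paralogs Cyp2b9 (-1.36 ± 0.17), Cyp2b13 (-1.18 ± 0.30) and Cyp2b10 (-1.07 ± 0.41), none of which passed under median centring. The other probe of Cyp2b9 gave -0.87, and Cyp2b13 and Cyp2b10 did not pass on array 2 alone. The club cell genes Scgb1a1, Scgb3a1, Muc5b, Bpifa1 and Bpifb1 did not meet the detection rule in either pool. Lyz1, a lysozyme gene of secretory cells, was lower at -2.76 ± 0.57. The lysozyme gene Lyz2, listed for macrophages, was lower as well, at -2.17 ± 0.05. The part of macrophages in the Lyz1 value was not tested, and signal shared between the probes was not checked.

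Further genes of proximal luminal cells, listed by name with earlier results known, also went both ways. Of 18 listed, 17 were on the array and detected, 2 were higher, 3 were lower and 12 were not called. The median was -0.39, against -0.10 on array 2 alone and -0.11 under median centring. Asking detection of both pools left 15 genes, with a median of -0.18. Among the higher ones, Nupr1, a stress-induced chromatin protein gene, stood at 2.56 ± 1.07, from 3.31 and 1.80 on the arrays. Ceruloplasmin (Cp), the copper-carrying ferroxidase, was lower at -3.01 ± 0.07, but its other probe gave -0.66. Lgals3, a galectin that macrophages also make, was lower at -1.46 ± 0.43. Cd44, a hyaluronan receptor of leukocytes and basal cells, was lower at -1.09 ± 0.05, and its transgenic spot cleared the background on 1 array only. The keratins of this compartment, Krt4 (-0.39 ± 0.41), Krt7 (-0.13 ± 0.18) and Krt19 (-0.07 ± 0.29), were not called.

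Other cell sources of these markers were set beside them. Urothelial and urethral genes, which include Psca and Ly6d, had 9 of 14 members detected and a median of 0.12, with Ly6d the only one called. The uroplakins of the bladder lining stood at -0.15 ± 1.01 (Upk1a), 0.08 ± 0.30 (Upk1b) and 0.12 ± 0.13 (Upk2), and Upk3a was not detected. Macrophage and dendritic cell genes, which can share Lgals3 and Cd44, had a median of -1.51 with 7 of 9 lower. Their summed intensity was 3051 and 3320 in the transgenic pool and 10593 and 13199 in the wild-type pool. The part of these leukocytes in the Lgals3 and Cd44 values was not tested. Distal luminal genes, the counterpart of the proximal set, had a median of -0.0043 with 2 of 15 lower, Spink1 at -5.88 ± 0.21 and Sbp at -1.35 ± 0.55. Sbp did not pass under median centring or on array 2 alone (-0.96). Msmb, a secreted protein gene of the same list, stood at -0.20 ± 1.11 and Pbsn at 0.02 ± 0.50. Fibroblast genes had a median of -0.66 with 2 of 10 lower, the collagen gene Col3a1 (-1.11 ± 0.05) and the small proteoglycan gene Lum (-1.11 ± 0.09). Neither passed under median centring, while Dcn (-1.07 ± 1.69) and Col1a2 (-0.76 ± 0.72), not called here, passed on array 2 alone and with the authors' series ratios. Smooth muscle genes had a median of -0.34 with 0 of 8 called, and the brightest of them, Tagln, stood at -0.27 ± 1.46.

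**Figure D4:**
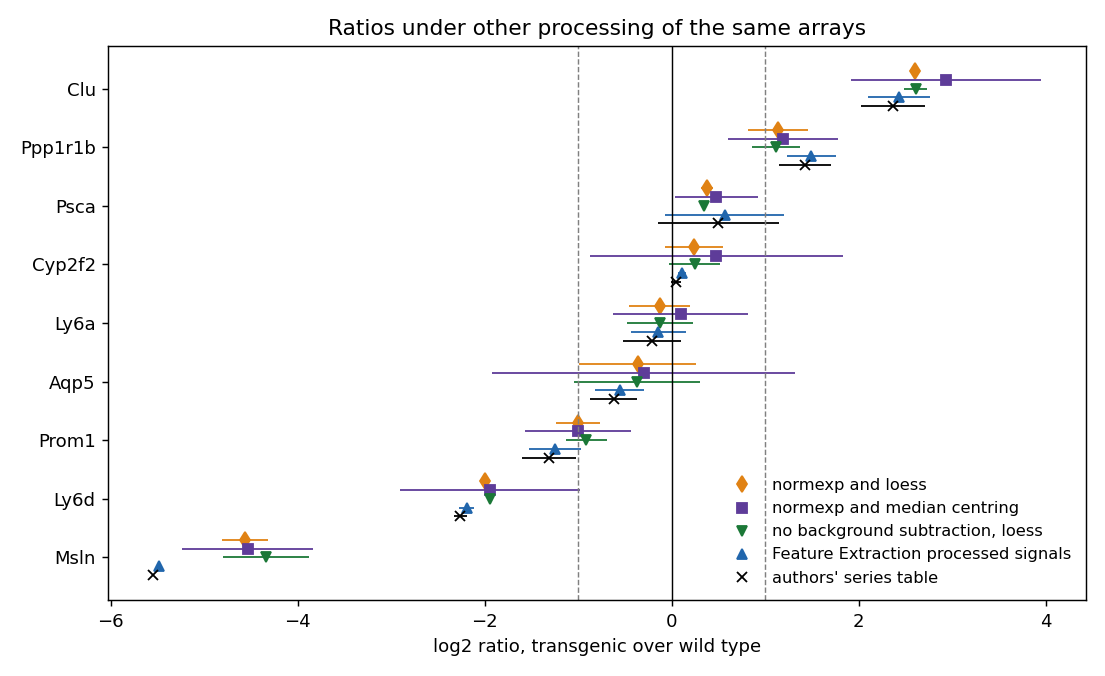
Mean log2 ratio of transgenic over wild type of the 9 genes (brighter probe for Prom1) under 5 ways of processing the same arrays, with lines that join the values of the 2 arrays. Clu, Ppp1r1b and Psca have means above 0 and Prom1, Ly6d and Msln below 0 in each, while the means of Ly6a lie on both sides of 0.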

How the data were processed

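The deposited scanner files hold spot and local background intensity per dye as median pixel values, together with processed intensities and flags (other values, 0 or 1). The authors read them with Agilent Feature Extraction 11.0.1.1, per the file headers. The authors' deposited series table holds log2 ratios of 15511 probes. Its columns match Feature Extraction's processed ratios, transgenic over wild type, less 0.08 on array 1 and 0.05 on array 2, and each column's median is 0. How it was filtered was not given in the sources used here. It covered 12011 genes, the same number as were detected here in both pools.

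Spots were corrected by normexp (offset 50), with control and outlier spots at weight 0 in the loess step that followed on each array (limma 3.58.1, R 4.3.3). The design named mean signals or, failing them, medians, and medians were used. Levels are per dye after Aquantile. Detection asked for the background flag on both arrays in at least 1 pool, and the brightest detected probe stood for a gene. No spot of the 9 genes was an outlier or saturated. Symbols came from RefSeq (GRCm38.p6), by accession, for 27816 probes, while 13358 had no match. The scripts were tested on simulated data. Members and lists were chosen with earlier results of these data known. Names follow a rule: the 9 genes, the called genes of each list (where under 3 were called, also its 3 brightest), and detected relatives, with examples given from longer sets. Krt4, Krt7, Pbsn, Upk1b, Upk2 and the undetected genes fall outside it and were chosen after their values were seen. Krt19 and Upk1a are named by it only as bright genes of the mesothelial and urothelial lists. Some genes of the lists that the rule names are not reported here. Alternatives are given in the closing section.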

Additional observations from a re-analysis of the deposited data

How the results depend on the processing

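With 1 pool per genotype there is no replicate check, and the number of arrays limits the precision. No paired analysis was possible because both arrays hold the same 2 pools. Clu, Ly6d, Msln, Psca, Ppp1r1b and Prom1 kept their sign under every alternative run, while Ly6a, Aqp5 and Cyp2f2 did not. Asking detection of both pools and dropping the filter on dim probes left all 9 values unchanged, so these runs were no check on them. The mean of all detected probes moved Prom1 only. The call of Prom1 was lost under median centring, without background subtraction, with the mean of its probes (its other probe gave -0.65) and on array 2 alone, and that of Ppp1r1b on array 1 alone. Under median centring the mean log2 ratio was 2.93 for Clu, -1.95 for Ly6d and 0.48 for Psca. Without background subtraction it was 2.61 for Clu, -1.94 for Ly6d and -4.34 for Msln. With Feature Extraction's processed signals it was 2.43 for Clu, -2.19 for Ly6d, 0.57 for Psca and -5.48 for Msln, and the deposited series ratios gave 2.37 for Clu, -2.26 for Ly6d, 0.50 for Psca and -5.55 for Msln. The cause of these shifts was not tested.

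On single arrays 271 to 450 genes were called higher and 589 to 599 lower, with 1 to 2 of the 9 genes higher and 2 to 3 lower. Genes called higher numbered 99 under median centring and 309 with Feature Extraction's signals, where 938 were lower. With detection in both pools 267 were lower. At a mean of at least 1.5-fold 250 were higher and 763 lower, and at 4-fold 32 and 166, with 1 of the 9 genes higher.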
